A study of Homo sapiens with 4 samples.

Results

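The imprinted gene loci examined here are the 80 kb stretches of the genome (bins) that overlap 7 hg19 intervals around 10 imprinted genes, each widened by 100 kb on both sides. They comprised 45 of the 27704 bins in the deposited table, in 6 of the 7 loci, and were chosen by position with no measured value. The locus on chromosome 11 that holds H19, IGF2 and KCNQ1 had 0 bins, because the lowest bin on that chromosome began at 4.56 Mb, and it was not analysed here. All 45 bins were among the 27142 bins with a call in 90% or more of the cells of each line, which are the bins used below.

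The study read replication in single S-phase cells of HCT116, an established human colorectal cancer line, and of DKO1, a clonal line derived from it by disrupting DNMT1 and DNMT3B, which encode DNA methyltransferases, and known to have lost most of its CpG methylation. Both lines grew in the same serum-supplemented medium, and each line was represented by 1 S-phase library in which equal numbers of sorted early, mid and late S-phase cells had been pooled. It held 322 cells of HCT116 and 207 of DKO1, with 0 shared cell barcodes. With 1 library per line no test between the lines was possible, so values are set side by side, and exact Clopper-Pearson intervals (95%) cover only the counting error of cells. Where a count was 0, the limit stated is the share that 3 counts would give, which is a separate rule from those intervals.

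An imprinted gene is expressed mainly from the copy inherited from a single parent, and the choice is kept by DNA methylation laid down on a control region in the egg or the sperm. Early replication goes with open, gene-rich chromatin and late replication with compact, gene-poor chromatin, and the parental copies of several imprinted regions are known to replicate at different times. A binary call per cell, as used here, does not tell the parental copies apart, so a locus with 1 early and 1 late copy cannot be told apart from a locus whose copies both replicate in mid-S phase.

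The CpG content of the start sites was read from RefSeq because CpG methylation is what distinguishes the lines, although methylation was not measured in these files. Of the 10 genes, 6 matched an entry among the RefSeq promoter sequences (GRCh38.p14), and where a gene had several entries the one with the most CpG was taken. The 250 bases upstream of the start held 12 CpG at SNRPN, 37 at UBE3A, 13 at MEG3, 20 at MEST, 32 at PLAGL1 and 4 at H19, against a median of 11 (quartiles 3 and 23) over 35116 entries. The entry with the fewest CpG held 1 at SNRPN, 31 at UBE3A, 11 at MEG3, 9 at MEST and 1 at PLAGL1, so the entry taken is the richest and not a typical one. The letters TGCCGC, part of the motif recognised by ZFP57, a zinc finger protein that keeps methylation at imprinted control regions, occurred on either strand 2 times at SNRPN, 1 time at MEG3, 1 time at MEST, 2 times at PLAGL1 and 0 times at UBE3A and H19, and at least once in 12.7% of all entries. Each match describes letters in that window and not a bound site. The sequences of the 5 genes with bins follow in the direction of transcription, 5′ to 3′, with each CpG in capitals, for SNRPN (chr15:24954737-24954986, plus strand), UBE3A (chr15:25439025-25439274, minus strand), MEG3 (chr14:100825858-100826107, plus strand), MEST (chr7:130486097-130486346, plus strand) and PLAGL1 (chr6:144008260-144008509, minus strand), all in GRCh38 coordinates, a different build from the hg19 coordinates of the bins.
SNRPN: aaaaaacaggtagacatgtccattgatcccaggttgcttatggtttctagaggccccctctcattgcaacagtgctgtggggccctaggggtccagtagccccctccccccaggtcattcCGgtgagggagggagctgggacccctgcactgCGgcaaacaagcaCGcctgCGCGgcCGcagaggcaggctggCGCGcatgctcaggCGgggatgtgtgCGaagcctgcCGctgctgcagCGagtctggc
UBE3A: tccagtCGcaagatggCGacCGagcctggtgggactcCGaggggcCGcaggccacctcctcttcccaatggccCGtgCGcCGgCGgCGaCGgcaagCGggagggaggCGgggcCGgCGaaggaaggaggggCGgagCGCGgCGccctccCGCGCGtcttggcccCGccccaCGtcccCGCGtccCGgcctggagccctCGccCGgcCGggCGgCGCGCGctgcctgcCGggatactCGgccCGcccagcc
MEG3: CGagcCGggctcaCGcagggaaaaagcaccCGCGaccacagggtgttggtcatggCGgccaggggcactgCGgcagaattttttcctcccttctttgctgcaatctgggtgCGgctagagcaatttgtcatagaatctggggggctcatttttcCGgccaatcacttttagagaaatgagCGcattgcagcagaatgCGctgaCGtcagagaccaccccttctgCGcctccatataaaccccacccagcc
MEST: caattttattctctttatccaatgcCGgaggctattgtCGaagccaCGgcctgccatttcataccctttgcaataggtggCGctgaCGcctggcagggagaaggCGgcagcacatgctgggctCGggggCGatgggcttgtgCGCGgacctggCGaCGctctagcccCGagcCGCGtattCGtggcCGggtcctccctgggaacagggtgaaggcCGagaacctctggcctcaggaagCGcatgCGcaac
PLAGL1: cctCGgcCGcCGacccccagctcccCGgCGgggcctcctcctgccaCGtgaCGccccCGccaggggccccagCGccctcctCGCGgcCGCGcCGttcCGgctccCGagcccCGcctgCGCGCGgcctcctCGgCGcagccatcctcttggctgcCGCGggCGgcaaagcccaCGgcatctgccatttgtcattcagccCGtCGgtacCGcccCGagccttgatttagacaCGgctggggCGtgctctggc

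The 6 loci covered nearly the whole of S phase, and they showed no wholesale shift in a single direction between HCT116 and DKO1. For each bin the share of cells in which it was replicated was averaged with equal weight over 6 strata of S-phase progress between 20 and 80%, where a cell's progress is the percentage of its called bins that were replicated (the standardised share). Averaged over its bins, MEST had a standardised share of 95.4% in HCT116 and 89.4% in DKO1, PLAGL1 of 76.3% and 66.6%, and MEG3 of 64.5% and 62.8%. PEG10 had 48.2% and 39.0%, PEG3 13.2% and 25.1%, and the SNRPN/UBE3A locus 4.93% and 6.55%. From earliest to latest the loci stood in the same sequence in both lines, and the differences ran in both directions, with PEG3 earlier in DKO1 and PLAGL1, PEG10 and MEST later.

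Few differences at the imprinted bins reached 15 percentage points, and many of these bins lay near an end of the scale. The part of that position in the low count was not tested. A difference of at least 15 percentage points was called, and 0 of the 45 bins were called higher in DKO1 against 6.9% of all used bins. The 1 bin called lower, the first bin at PLAGL1 (144.16 to 144.24 Mb on chromosome 6), stood at -15.1 points, against 7.39% of all used bins called lower and 14.3% called in either direction. This bin lay in the added flank and outside the PLAGL1 interval itself. That single call was lost under 7 of the 9 alternative settings, among them the setting without the flank, which leaves the bin out by construction. Bins near 0 or 100% in HCT116 could be called in a single direction only. The SNRPN/UBE3A bins (up to 9.93%) and PEG3 bins (up to 14.4%) could not be called lower. The MEST bins (from 95.1%) and the first MEG3 bins (92.0% and 86.5%) could not be called higher. The counts above are therefore no measure of stability at these loci. The bins nearest to the limit of 15 points on its inner side were the last bin at PEG3 with 14.8 points and the second bin at PLAGL1 with -12.7 points. Any higher share in DKO1 was seen at 24 of the 45 bins against 50% of all used bins. The median difference was 0.487 points and the median size of the difference 3.26 points, against 5.90 points over all used bins. These medians were set by the SNRPN/UBE3A locus, which holds 23 of the 45 bins: the other 22 bins had a median difference of -5.14 points and a median size of 6.43 points, above that of all used bins. The mean differences of PEG3, PLAGL1, PEG10 and MEST, 4 of the 6 loci, were each larger than the genome-wide median size.

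**Figure D1:**
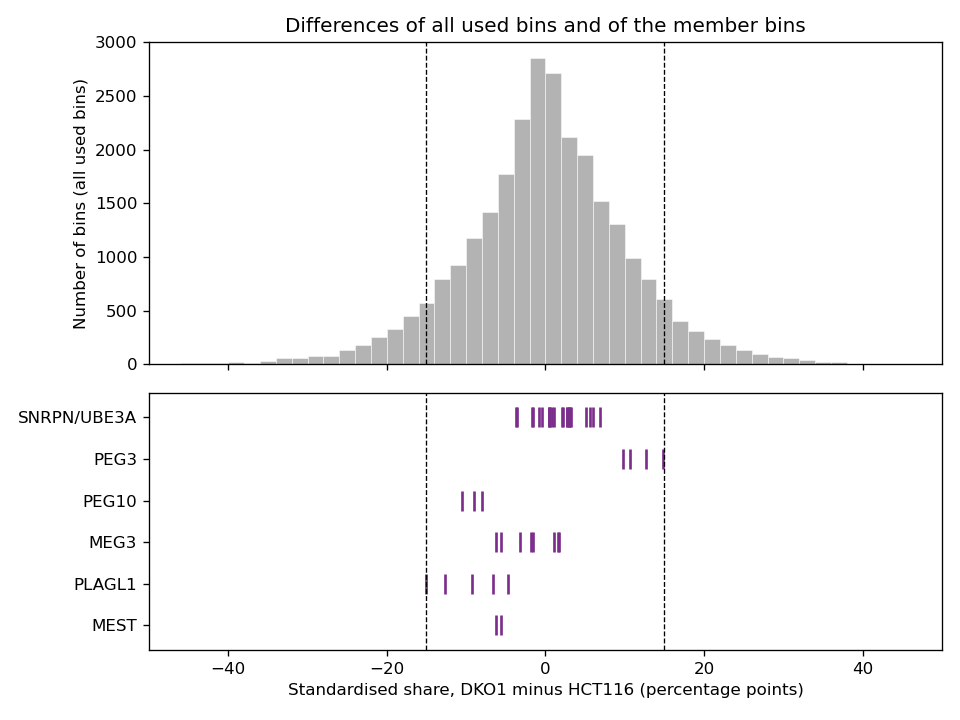
Upper panel: number of used 80 kb bins by difference in standardised share, DKO1 minus HCT116 in percentage points, in intervals of 2 points; lower panel: the imprinted bins, each a tick, by locus. The dashed lines mark 15 points; PEG3 lies to the right of 0, PEG10, PLAGL1 and MEST to the left, and SNRPN/UBE3A and MEG3 on both sides.

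PLAGL1 encodes a zinc finger transcription factor and is expressed from the paternal copy. Its 5 bins (chromosome 6, 144.16 to 144.56 Mb) were replicated in the first part of S phase, and all 5 had a lower share in DKO1. In HCT116 the share declined along the locus from 82.0% in the first bin to 70.5% in the last, whereas in DKO1 the 5 bins stood level, between 65.8% and 67.5%. The difference therefore shrank from -15.1 points at the low-coordinate end to -4.68 points at the other. Cells that switch state inside the locus make up this slope, so their counts restate it and are no separate support. Among the HCT116 cells with exactly 1 switch of state inside the locus, 45 of 55 were replicated at the low-coordinate side (81.8%, 69.1 to 90.9%). In DKO1 13 of 26 were (50%, 29.9 to 70.1%), and the intervals of the lines overlap slightly.

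For counts of cells, a locus was taken as replicated in a cell where over 50% of its called bins were, and ties were left out. PLAGL1 was replicated in 126 of 136 mid-S HCT116 cells, those at 40 to 60% progress (92.6%, 86.9 to 96.4%), and in 81 of 97 mid-S DKO1 cells (83.5%, 74.6 to 90.3%). Between 20 and 30% progress 12 of 33 HCT116 cells had replicated it, against 0 of 10 DKO1 cells, which allows a share of up to 30%. A logistic curve of state on progress crossed 50% at 32.6% progress in HCT116 and 37.5% in DKO1. The lower share reached beyond the locus. All 13 bins of the adjoining 1 Mb below it were lower in DKO1, with means of 73.9% and 65.2%. The 1 Mb above it had means of 63.1% and 63.8% and bins of both signs, 6 lower and 7 higher in DKO1, the lower ones including the 2 next to the locus (-3.34 and -1.20 points). Without the cells in which chromosome 6 as a whole stood over 15 points from the rest of the genome the locus difference was -8.70 points, and in the cells with code 0 (no call) in no more than 1% of bins, over the strata left, it was -4.86 points, against -6.10 points over the same strata in all cells.

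MEST, a paternally expressed gene for a protein of the alpha/beta hydrolase fold, was the earliest of the 6 loci. Its 2 bins (chromosome 7, 130 to 130.16 Mb) were replicated in 137 of 138 mid-S HCT116 cells (99.3%, 96.0 to 100%) and in 96 of 102 mid-S DKO1 cells (94.1%, 87.6 to 97.8%). Both bins had a lower standardised share in DKO1, by -5.60 and -6.30 points. The gap did not lie in the earliest cells alone. Between 60 and 70% progress MEST was replicated in 79 of 79 HCT116 cells and in 34 of 39 DKO1 cells (87.2%, 72.6 to 95.7%).

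Cells past 40% progress with MEST still unreplicated made up 1 of 236 in HCT116 (0.424%, 0.0107 to 2.34%) and 11 of 151 in DKO1 (7.28%, 3.69 to 12.7%), a limit chosen after the values were seen. Chromosome 7 as a whole stood apart from the cell's other chromosomes in 4 of those 11 cells and in the 1 HCT116 cell. Without such cells the counts were 0 of 234, which allows a share of up to 1.28%, and 7 of 144 (4.86%, 1.98 to 9.76%). In cells with code 0 in no more than 1% of bins they were 0 of 184, which allows up to 1.63%, and 4 of 63 (6.35%). The neighbouring 1 Mb on either side was early as well and moved the same way by less, from 98.7% to 95.8% below and from 95.6% to 92.2% above.

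PEG10, a paternally expressed gene derived from a retrotransposon, was replicated around the middle of S phase in both lines. Its 3 bins (chromosome 7, 94.16 to 94.40 Mb) were replicated in 58 of 137 mid-S HCT116 cells (42.3%, 33.9 to 51.1%) and in 35 of 101 mid-S DKO1 cells (34.7%, 25.5 to 44.8%), and these intervals overlap. All 3 bins had a lower standardised share in DKO1, between -10.5 and -8.01 points. In the cells with little code 0 the mean difference of the locus was -4.20 points in place of -9.17, against -6.49 points over the same strata in all cells. Between 50 and 60% progress PEG10 was replicated in 41 of 77 cells of HCT116 (53.2%, 41.5 to 64.7%) and 19 of 48 of DKO1 (39.6%, 25.8 to 54.7%). Between 60 and 70% the counts were 72 of 81 (88.9%, 80 to 94.8%) and 27 of 39 (69.2%, 52.4 to 83.0%), and the intervals overlapped in both strata. The fitted curve crossed 50% at 51.5% progress in HCT116 and at 57.3% in DKO1. Between 25 and 75% of cells replicated, it spanned 18.7 points of progress in HCT116 and 26.0 in DKO1.

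The DNA further below PEG10 went the other way. The 1 Mb below it (93.12 to 94.16 Mb) had a mean standardised share of 32.2% in HCT116 and 50.4% in DKO1. That difference of 18.2 points lay between 17.1 and 26.8 points under the other processing choices. There 12 of 13 bins were higher in DKO1, the exception being the bin next to PEG10 (-4.65 points). The 1 Mb above had 47.4% and 45.8%, with 9 of 13 bins lower in DKO1, among them all of those up to 95.12 Mb, by as much as -14.0 points, and the 4 bins beyond it higher. PEG10 thus sat at the top of a slope that rose from below in HCT116 and in a dip in DKO1. Counted within single cells, the order of PEG10 and the stretch below it was turned round as well. Which side is replicated in most cells that differ follows from the shares of cells with each side replicated. The counts that follow, on either side of PEG10, therefore restate those shares and are no separate support. Of the HCT116 cells in which only PEG10 or only that stretch was replicated, PEG10 was the replicated side in 75 of 87 (86.2%, 77.1 to 92.7%), and of such DKO1 cells in 13 of 55 (23.6%, 13.2 to 37.0%). Against the 1 Mb above, PEG10 was the replicated side in 40 of 66 cells of HCT116 (60.6%, 47.8 to 72.4%) and 15 of 44 of DKO1 (34.1%, 20.5 to 49.9%). An order within a cell does not depend on how cells of the lines were matched, but the choice of a 1 Mb window at this locus was made after its profile was seen.

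**Figure D2:**
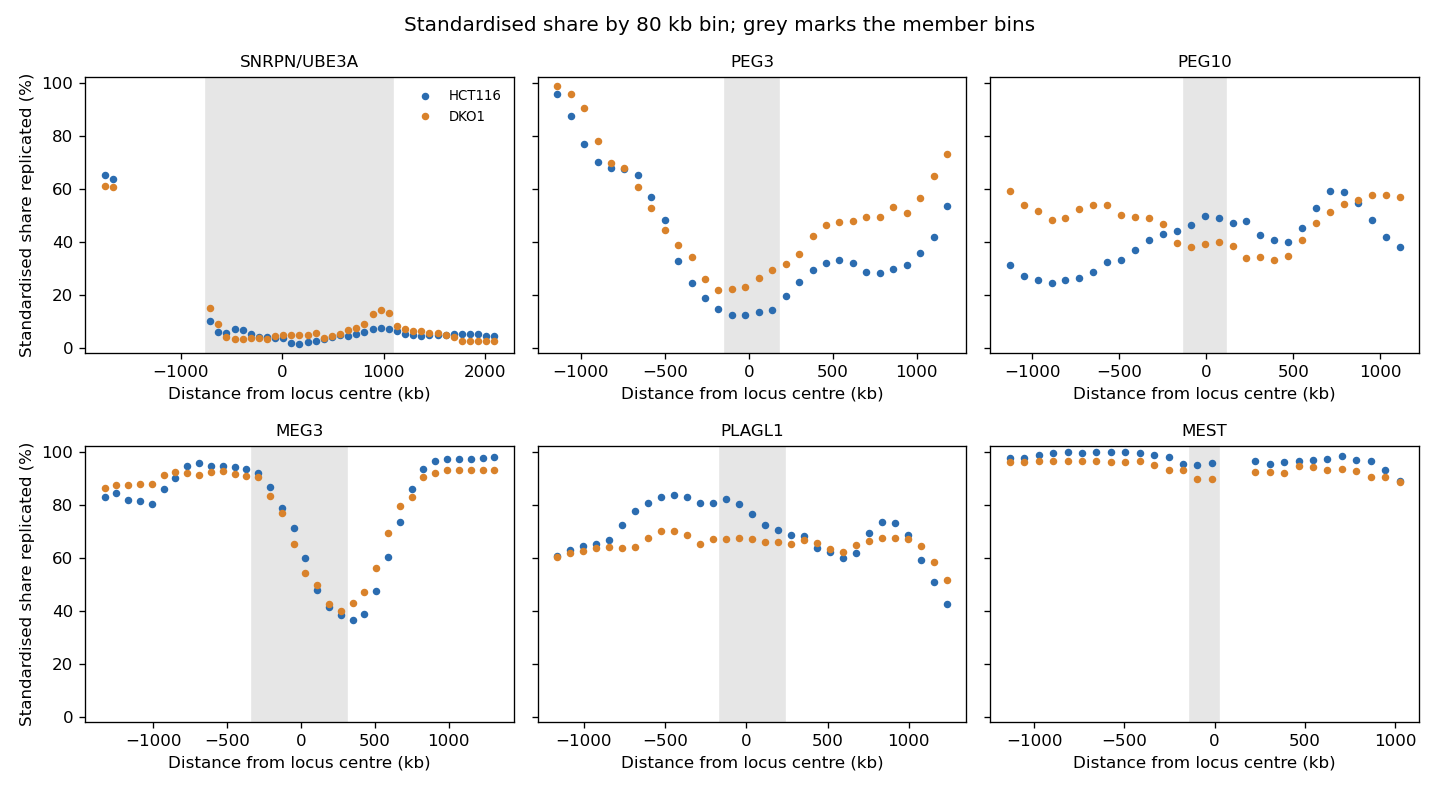
Standardised share replicated (%) of each 80 kb bin in HCT116 (blue) and DKO1 (orange) against distance from the centre of the locus in kb, with the imprinted bins on grey and up to 1 Mb of neighbouring bins on each side. At PEG10 the lines cross at the low edge of the locus, at PEG3 the DKO1 bins lie above those of HCT116 across the locus and beyond it, and MEG3 lies on a descent that is alike in both lines.

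PEG3, a paternally expressed zinc finger gene, was the one locus with a higher share in DKO1 at all its bins. Its 4 bins (chromosome 19, 57.20 to 57.52 Mb) had standardised shares of 12.3% to 14.4% in HCT116 and of 22.1% to 29.2% in DKO1, so the ranges of the bins did not overlap. The differences of the 4 bins were 9.81 to 14.8 points, and 11.1% of all used bins had a higher difference than the locus mean of 12 points. Over all cells the locus was replicated in 24 of 312 in HCT116 (7.69%, 4.99 to 11.2%) and in 35 of 198 in DKO1 (17.7%, 12.6 to 23.7%).

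That gain was concentrated in the cells between 60 and 70% progress, where PEG3 was replicated in 8 of 76 cells of HCT116 (10.5%, 4.66 to 19.7%) and 19 of 37 of DKO1 (51.4%, 34.4 to 68.1%). In mid-S cells the counts were 5 of 135 and 7 of 99, and between 70 and 80% they were 10 of 19 and 6 of 9, with overlapping intervals in both. The fitted curve crossed 50% at 76.8% progress in HCT116 and at 66.5% in DKO1. In the cells with code 0 in no more than 1% of bins the gap was smaller: 75.2% and 73.4% progress, and 6.45 points of standardised share in place of 12, with 75 DKO1 cells left. In all cells over the same strata the difference was 12.6 points. The neighbouring 1 Mb above PEG3 (57.52 to 58.56 Mb), which was not part of the locus, rose further, from 32.3% to 49.8%, and by 22.6 points in the cells with little code 0. The 1 Mb below it went from 55.9% to 59.9%.

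MEG3 is a long non-coding RNA expressed from the maternal copy, in a cluster of imprinted small RNA genes. Its 8 bins (chromosome 14, 101.04 to 101.68 Mb) fell along the locus from early to middle replication in both lines, in HCT116 from 92.0% in the first bin to 38.4% in the last, in DKO1 from 90.5% to 40%. The largest difference of a bin was -6.22 points, and 3 bins were higher and 5 lower in DKO1. Further up the shares rose again, so that the 1 Mb below and the 1 Mb above had means of 88.7% and 78.4% in HCT116 and of 90% and 78.8% in DKO1.

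The descent was present in single cells. Cells that switch state inside the locus make up this descent, so their counts largely restate it and are no separate support. A mixture of replicated and unreplicated bins was present in 183 of 316 cells of HCT116 (57.9%, 52.3 to 63.4%) and in 108 of 197 cells of DKO1 (54.8%, 47.6 to 61.9%), a larger share than at any of the other 5 loci in either line. In cells with exactly 1 switch of state the replicated side was the low-coordinate side in 177 of 177 HCT116 cells (97.9 to 100%) and in 103 of 103 DKO1 cells (96.5 to 100%). Neighbouring bins differed most often at 101.44 Mb in HCT116 and 1 bin lower, at 101.36 Mb, in DKO1.

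Of the mid-S cells without a tie, 93 of 113 in HCT116 (82.3%, 74.0 to 88.8%) and 54 of 86 in DKO1 (62.8%, 51.7 to 73.0%) had most of the MEG3 bins replicated. Between 30 and 40% progress the order of the lines was the reverse, with 11 of 40 HCT116 and 14 of 35 DKO1 cells. The mean standardised share over bins, a different measure that also takes in cells with a tie, differed by -1.76 points. The fitted curve spanned 12.3 points of progress in HCT116 and 20.7 in DKO1, with midpoints of 39.9% and 42.0%. That gap in width was not seen in all subsets of cells. Chromosome 14 stood apart as a whole in 19 of 207 DKO1 cells and 9 of 322 HCT116 cells, and without them the widths were 12.3 and 14.3. In cells with little code 0 they were 12.6 and 13.5, and the difference in midpoint was 4.07 points.

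The SNRPN/UBE3A locus joins a paternally expressed gene for a splicing protein, SNRPN, with UBE3A, a ubiquitin ligase gene that is expressed from the maternal copy in neurons. Its 23 bins (chromosome 15, 24.00 to 25.84 Mb) were late in nearly all cells of both lines. Shares lay between 1.57% and 9.93% in HCT116 and between 3.15% and 15.1% in DKO1, with 17 bins higher and 6 lower in DKO1. Of 317 HCT116 cells 6 had most of the locus replicated (1.89%, 0.698 to 4.07%), as had 6 of 206 DKO1 cells (2.91%, 1.08 to 6.23%). Among mid-S cells it was replicated in 3 of 137 and 2 of 104. The bins at the high-coordinate end, from 25.60 to 25.84 Mb, had the largest differences of the locus, between 5.68 and 6.92 points, and the first bin differed by 5.13 points. The 1 Mb above the locus stood at 4.95% and 4.66%. No curve crossed 50% within the range of progress of the cells, which ended at 77.6% in HCT116 and 78.5% in DKO1, so neither a midpoint nor a width could be given here.

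**Figure D3:**
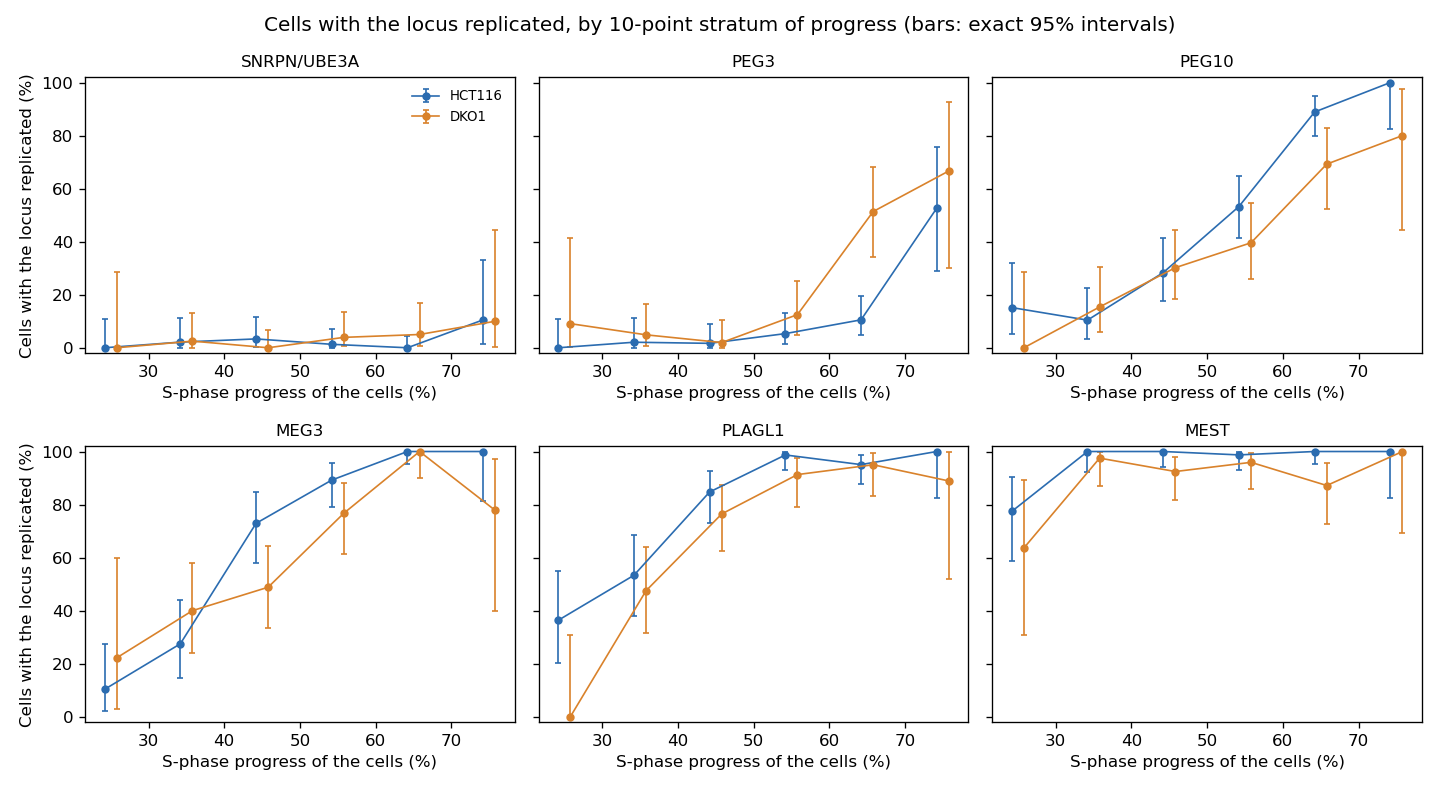
Percentage of cells with the locus replicated, by 10-point stratum of S-phase progress from 20 to 80%, in HCT116 (blue) and DKO1 (orange), with exact 95% intervals that cover counting error only. PEG3 separates between 60 and 70% progress (10.5% and 51.4%). PEG10 differs in the same stratum in the other direction (88.9% and 69.2%), with intervals that overlap. SNRPN/UBE3A stays near 0 in both lines.

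Shares between 20 and 80% of mid-S cells, which a locus with 1 early and 1 late copy could give, were confined among the imprinted bins to PEG10 and MEG3 in HCT116, and to these and PLAGL1 in DKO1. Such intermediate shares were found at 7 of the 45 bins in HCT116, or 15.6%, against 26.1% of all used bins. In DKO1 they were found at 9 bins, or 20%, against 36.0%. Without the 23 bins of SNRPN/UBE3A, a late locus with no such bin, the shares were 31.8% and 40.9% of 22 bins, so the side of the genome-wide share on which the imprinted bins fell depended on that locus. The 7 HCT116 bins were intermediate in both lines and comprised the 3 PEG10 bins and the last 4 MEG3 bins. In DKO1 the MEG3 bin at 101.28 Mb (68.3% of mid-S cells, from 85.4% in HCT116) and the first PLAGL1 bin (78.6%, from 94.9%) joined them. At MEG3 the intermediate shares lay on the descent described above, and at PEG10 they lay in a locus of which 10.6% of HCT116 cells and 9.45% of DKO1 cells had some but not all bins replicated. No bin of SNRPN/UBE3A, PEG3 or MEST was intermediate in either line.

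Wider curves in DKO1 were not confined to the imprinted bins. Curves were fitted to the bins replicated in 10 to 90% of the cells of both lines and kept where the midpoint lay within the progress of the cells. Over the 13395 bins kept, the median width from 25 to 75% was 17.7 points in HCT116 and 24.1 in DKO1, and 87.3% of these bins were wider in DKO1. Among the imprinted bins 14 of 45 were kept, from MEG3, PEG10 and PLAGL1, with median widths of 16.6 and 24.1 points, and 13 of them were wider in DKO1. The 6 MEG3 bins had widths of 13.4 to 17.2 points in HCT116 and of 23.8 to 28.7 in DKO1, and the 3 PEG10 bins of 18.3 to 18.8 and of 23.4 to 27.1. The exception was the last PLAGL1 bin, with 19.5 and 15.4 points. The curves of single bins were not refitted in the subsets of cells. In curves of whole loci the gap in width at MEG3 was 8.43 points. It was 2.01 without cells whose chromosome 14 stood apart and 0.926 with little code 0. In the like subsets the gap at PEG10 went from 7.30 to 5.59 and 6.01 points, and at PLAGL1 from 0.174 to 2.36 and -2.28.

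Counted within single cells, the loci stood in nearly the same sequence in both lines. Which locus of a pair is first in most cells that differ follows from the shares of cells with each locus replicated. The sequence therefore restates those shares and is no separate support. For each of the 15 pairs of loci, cells with exactly 1 locus of the pair replicated were counted, and in both lines more than 50% of them had the earlier-named locus replicated, in the sequence MEST, PLAGL1, MEG3, PEG10, PEG3 and SNRPN/UBE3A. The percentage was lower in DKO1 at 12 pairs, higher at 2 and equal at 1, and the intervals of the lines were apart at 1 pair. At that pair PEG10 preceded PEG3 in 132 of 135 such HCT116 cells (97.8%, 93.6 to 99.5%) and in 51 of 63 DKO1 cells (81.0%, 69.1 to 89.8%). At the other pairs the intervals overlapped. MEST preceded PLAGL1 in 47 of 48 HCT116 cells (97.9%, 88.9 to 99.9%) and in 44 of 53 DKO1 cells (83.0%, 70.2 to 91.9%), and PEG3 preceded SNRPN/UBE3A in 22 of 26 (84.6%, 65.1 to 95.6%) and in 31 of 33 (93.9%, 79.8 to 99.3%). MEG3 preceded PEG10 in 67 of 75 HCT116 cells (89.3%, 80.1 to 95.3%) and in 61 of 81 DKO1 cells (75.3%, 64.5 to 84.2%). When all called bins of a locus had to share a state, that percentage was 91.7% in both lines, while PEG10 preceded PEG3 in 97.2% and 78.7%. The closest pair in both lines was PLAGL1 and MEG3, with PLAGL1 first in 39 of 54 (72.2%, 58.4 to 83.5%) and in 33 of 50 (66.0%, 51.2 to 78.8%). Under the same condition PLAGL1 was first in 43.8% of the DKO1 cells that differed, so the order of this pair in DKO1 was not settled.

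**Figure D4:**
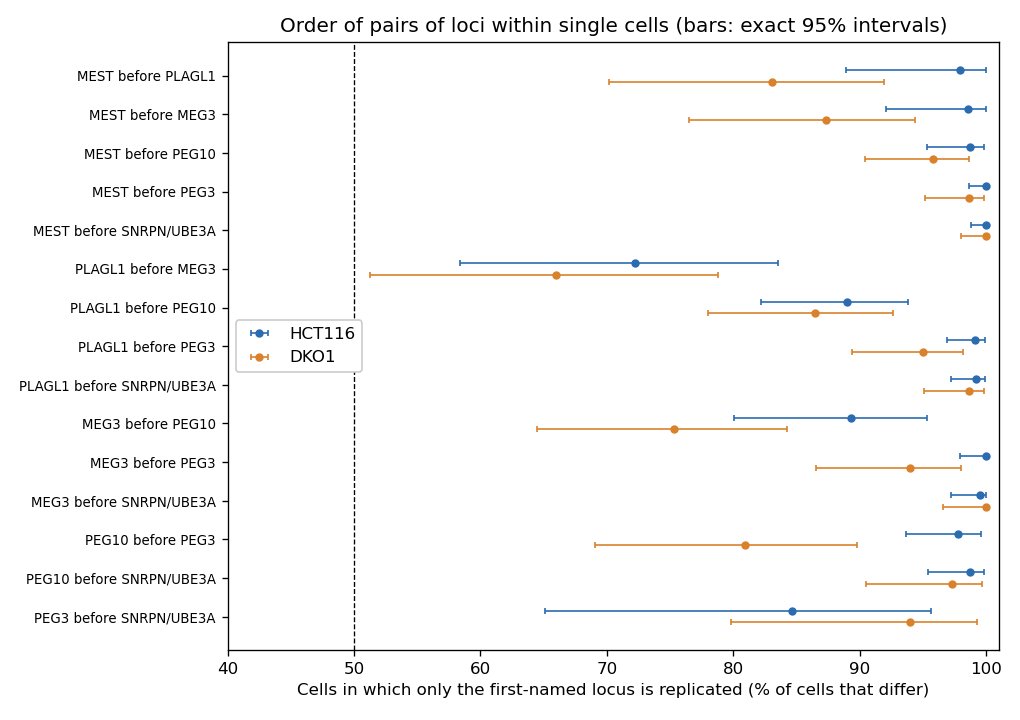
Of the cells in which exactly 1 locus of a pair was replicated, the percentage in which it was the first-named locus, for all 15 pairs in HCT116 (blue) and DKO1 (orange), with exact 95% intervals of counting error. The axis starts at 40% and the dashed line marks 50%; all points lie above it, and the DKO1 points lie lowest at PLAGL1 before MEG3 (66.0%), MEG3 before PEG10 (75.3%) and PEG10 before PEG3 (81.0%).

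Call quality differed between the libraries. Code 0 filled 0.794% of the used bins in HCT116 and 2.40% in DKO1. Cells in which the chromosome of a locus stood over 15 points from the rest of the genome numbered 3 in HCT116 and 10 in DKO1 for chromosome 7, and 3 and 12 for chromosome 19. For chromosome 6 they numbered 9 and 6, and for chromosome 15 they numbered 7 and 4. PEG10 past 60% progress is an example of a result in these subsets. It was unreplicated in 9 of 100 cells of HCT116 and 14 of 49 of DKO1 (28.6%, 16.6 to 43.3%). Without the cells with an outlying chromosome 7 the counts were 9 of 99 and 11 of 46 (23.9%, 12.6 to 38.8%). In cells with code 0 in no more than 1% of bins they were 8 of 82 and 4 of 18 (22.2%). PLAGL1 past 50% progress was unreplicated in 5 of 177 and 7 of 95 cells. With little code 0 these counts were 0 of 144, which allows a share of up to 2.08%, and 1 of 37. The part of code 0 in the differences between the lines was not tested beyond these subsets.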

How the data were processed

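The deposited table holds a state code for each 80 kb bin and cell, an output of a hidden Markov model that the authors made binary, per the file headers and name, in hg19 coordinates. Tools named in the submitters' processing notes are bedtools 2.26.0, SAMtools 1.10 and Cell Ranger. The depth per cell is not given in the sources used here. The codes are not defined in the table: 2 was read as replicated, 1 as unreplicated and 0 as not called, since the share of code 2 rose with the gene density of chromosomes (Spearman rho 0.845 in HCT116 and 0.855 in DKO1 over 21 chromosomes). The sample labels name DKO1 but not its genotype, which is background knowledge. The 2 G1 libraries were not analysed here.

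Loci, lists and limits were chosen with earlier results of these data known, although the rule that assigns bins to a locus uses position and no measured value. All loci of the rule are named, with the bins that had the highest or lowest share or the largest difference; other imprinted genes were not analysed here, since no annotation of the table's build was used. Strata were 10 points wide and needed at least 5 cells of each line; they held 33, 48, 60, 78, 82 and 19 HCT116 cells and 11, 41, 53, 51, 40 and 10 DKO1 cells. A locus needed calls in at least 50% of its bins in a cell. Curves used progress from the other chromosomes and were kept where the midpoint lay within the cells' progress. Scripts ran in Python 3.11.15 with numpy 2.4.6, pandas 2.3.3, scipy 1.17.1 and matplotlib 3.10.9 and were tested on simulated data. Alternatives varied the flank, the handling of code 0, the filter on called cells, the strata, the matching, the measure of progress, the limits on mid-S and intermediate, and left out cells with much code 0 or an outlying chromosome.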

Additional observations from a re-analysis of the deposited data

Results flagged for a closer look

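Code 0, which marks bins with no call and is outside the shares compared in the report, was more frequent in DKO1 than in HCT116 cells at 4 of the 6 loci, counted as cells with code 0 in at least 1 bin of the locus. At MEG3 it was found in 14 of 207 DKO1 cells (6.76%) and 7 of 322 HCT116 cells (2.17%). PLAGL1 had it in 10 DKO1 cells (4.83%) and 6 HCT116 cells (1.86%), and PEG10 in 6 DKO1 cells (2.90%) and 2 HCT116 cells (0.621%). MEST had it in 4 DKO1 cells (1.93%) and 3 HCT116 cells (0.932%). At the SNRPN/UBE3A locus it was found in 2 DKO1 cells and 6 HCT116 cells, and at PEG3 in 1 and 2. Code 0 was more frequent in DKO1 over all used bins as well, at 2.40% against 0.794% in HCT116, a share of bins and not of cells. By that measure the shares in DKO1 and HCT116 were 5.25% and 1.79% at MEG3 and 4.64% and 1.74% at PLAGL1. At PEG10 they were 2.90% and 0.518%, and at MEST 1.93% and 0.932%. An excess in DKO1 was thus not confined to the 4 loci, and whether its size there differs from the rest was not tested. With 1 library per line these differences have no replicate check.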

How the results depend on the processing

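Across the alternatives the difference in mean standardised share (DKO1 minus HCT116) ran from 0.779 to 2.10 points at SNRPN/UBE3A, from 6.45 to 12.8 at PEG3, from -6.55 to -4.44 at MEST, from -11.5 to -4.20 at PEG10 and from -11.0 to -4.86 at PLAGL1, with the sign kept at these 5 loci. At MEG3 it ran from -6.70 to 0.929 points, turning positive with code 0 taken as unreplicated (56.9% and 57.9%). The number of imprinted bins past 15 points was 2 with progress from the other chromosomes and 0 without the flank, with code 0 as unreplicated, with no filter on called cells, with no matching, with little code 0, without outlying chromosomes, and over strata from 30 to 70% only, the last an alternative chosen after seeing the data, as were those for the 1 Mb beside PEG10 and PEG3. Without the flank 4 bins in HCT116 and 5 in DKO1 were intermediate.

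Differences in curve width and midpoint changed at MEG3, PEG3 and PLAGL1. Without the flank they were 2.79 points at PEG3 and 3.23 at PLAGL1. With little code 0 the differences at MEG3 were 4.07 in midpoint and 0.926 in width, at PEG3 -1.75 in midpoint and 8.20 in width, and at PLAGL1 -2.28 in width (13.5 and 11.3). Without cells with an outlying chromosome they were 3.90 in midpoint and 2.01 in width at MEG3, -1.41 in width at PEG3 (15.8 and 14.4) and 2.36 in width at PLAGL1. The order of PLAGL1 and MEG3 in DKO1 was turned (43.8%) when all called bins had to share a state. The cause of these changes was not tested. No paired analysis was possible because each line had 1 S-phase library.

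The number of cells limits precision, above all in the outer strata, and nothing here measures the spread between cultures. Neighbouring bins share their calls, and a state per bin does not separate parental copies.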
